A study of Mus musculus with 6 samples.

Results

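The endogenous pluripotency and germline genes were followed in 4434 cells, a mouse melanoma line carrying the Braf V600E mutation, at day 20 of partial reprogramming. Cells of both groups were infected with a lentiviral vector that doxycycline switches on. It carried murine Oct4 (the product of Pou5f1), Sox2, Klf4 and blasticidin resistance. A further vector made the doxycycline-dependent transactivator with mCherry constitutively. The + dox cells were given doxycycline and, per the methods, selected with blasticidin from day 3. Per the paper, the − dox cells expressed both vectors. They were kept without doxycycline throughout, so doxycycline, selection and the 3 factors cannot be told apart here. Reprogramming medium contained the cytokine LIF. Total RNA went onto 6 Affymetrix arrays, 3 per group. No label states that the arrays of a group stand for separate cultures, so a p-value here measures the spread between these samples only, and this spread may be technical.

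Members were 46 genes, 35 of pluripotent cells and 11 of the germline, with the factor families of the vector left out. Every probe set that the platform annotation assigned to exactly 1 of these symbols was taken. This gave 72 probe sets for 45 genes, of 34945 probe sets with 1 gene and 45101 in all. Nanos3, a gene of germ cell survival, had no such probe set and was not analysed here. Values are log2 expression values per probe set, normalised with RMA, so that 1 unit is a 2-fold difference. Probe sets differ in brightness for the same amount of RNA, so levels of single genes were not compared as amounts of RNA. Shares of probe sets above a set level were compared between lists and carry this limit. The lower quartile of all 45101 probe sets of an array, 3.84 to 3.90 in the 6 arrays, served as the lowest bar for a level, and their median, 5.33 to 5.37, as a stricter one.

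Pluripotent cells are held by a circuit of transcription factors in which Oct4 and Sox2 work together with Nanog, Esrrb, Sall4 and Tfcp2l1. LIF signals through Stat3 to keep this circuit active in mouse embryonic stem cells. In reprogramming of somatic cells, Fbxo15 and Alpl are known as early markers, while Nanog, Dppa2, Dppa4 and Utf1 mark a later step. Many germline genes, such as Dazl, Ddx4, Sycp3 and Mael, are silenced by DNA methylation in somatic cells and are switched on again in some tumours.

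The composite element for Oct4 and Sox2 in the Nanog promoter ties this gene directly to factors of the vector. It is shown here because Nanog is a gene by which full reprogramming is often judged, and the Zfp42 window because it holds part of the same element. RefSeq promoter windows of assembly GRCm38.p6, from 250 bases before to 50 bases after the start, were matched for 32 of the 46 genes (14 were missing from the table). The octamer core, searched as TTTGCAT or on the other strand ATGCAAA, was found in windows of 5.24% of all genes (4.63% of windows) and of 2 of the 32 members, Nanog and Zfp42 (6.25%). The Sox core, ACAATG or CATTGT, was found in windows of 14.3% of all genes (12.6% of windows) and of 7 of the 32 members, Eras, Esrrb, Lin28a, Magea5, Nanog, Nanos3 and Stra8 (21.9%). In the composite the octamer core, any 1 base and the Sox core follow each other, so it overlaps both. It was found in 2 of 32851 windows, both of them windows of Nanog. These 2 windows overlap and hold the same site, so it is 1 element. Zfp42 encodes Rex1, a classical stem cell marker. The Nanog window shown lies at chr6:122707315-122707614, plus strand, with the composite starting 151 bases before the start of the transcript and set in capitals. The Zfp42 window lies at chr8:43306960-43307259, minus strand, with the octamer core in capitals, 185 bases before the start. A match is a description of the letters and not a measured binding site.
Nanog: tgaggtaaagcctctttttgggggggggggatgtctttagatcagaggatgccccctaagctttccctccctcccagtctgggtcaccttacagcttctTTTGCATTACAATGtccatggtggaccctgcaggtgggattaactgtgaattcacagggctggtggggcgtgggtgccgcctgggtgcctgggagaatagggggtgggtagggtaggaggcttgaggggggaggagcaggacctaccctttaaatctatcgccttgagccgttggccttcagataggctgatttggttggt
Zfp42: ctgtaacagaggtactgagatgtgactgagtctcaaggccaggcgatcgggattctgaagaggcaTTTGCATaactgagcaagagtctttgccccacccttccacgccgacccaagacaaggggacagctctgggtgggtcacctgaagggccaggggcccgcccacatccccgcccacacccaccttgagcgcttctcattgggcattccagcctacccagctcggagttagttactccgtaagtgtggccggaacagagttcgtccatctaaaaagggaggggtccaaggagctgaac

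Both genes lay under the lower quartile in all 6 arrays. Nanog stood at 2.96, 2.76 and 2.63 in + dox arrays 1, 2 and 3 and at 2.70, 2.76 and 2.58 in − dox arrays 1, 2 and 3. The groups overlapped, and the difference of + dox minus − dox was 0.10 (SE 0.12, 95% confidence interval −0.18 to 0.39; limma adjusted p = 0.699). Zfp42 lay between 2.62 and 3.02 over the 6 arrays, with a difference of −0.09. Values so near the bottom of the scale are compressed, and a small change at this level may not be detectable.

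The module as a whole lay low in both groups. Of the 72 probe sets, 41 exceeded the lower quartile in at least 1 array (56.9%, against 83.6% of all probe sets with 1 gene), and 29 did so in all 6 arrays. The remaining 31 did not exceed it in any array. By gene, 26 of 45 had a probe set above it in some array and 19 had none. Above the median of all probe sets in all 6 arrays were 9 of 72 (12.5%, against 52.6%), which belonged to Esrrb, Tbx3, Utf1, Fgf4, Lefty1, Myc, Mycn and Etv4. In the + dox and − dox groups alike the counts were close: 32 probe sets exceeded the lower quartile in all 3 + dox arrays and 30 in all 3 − dox arrays. Values above the lower quartile in some + dox but no − dox array were found in 3 of the 72 probe sets, and the reverse in 2. Over all 34945 probe sets with 1 gene these counts were 676 and 521.

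**Figure D1:**
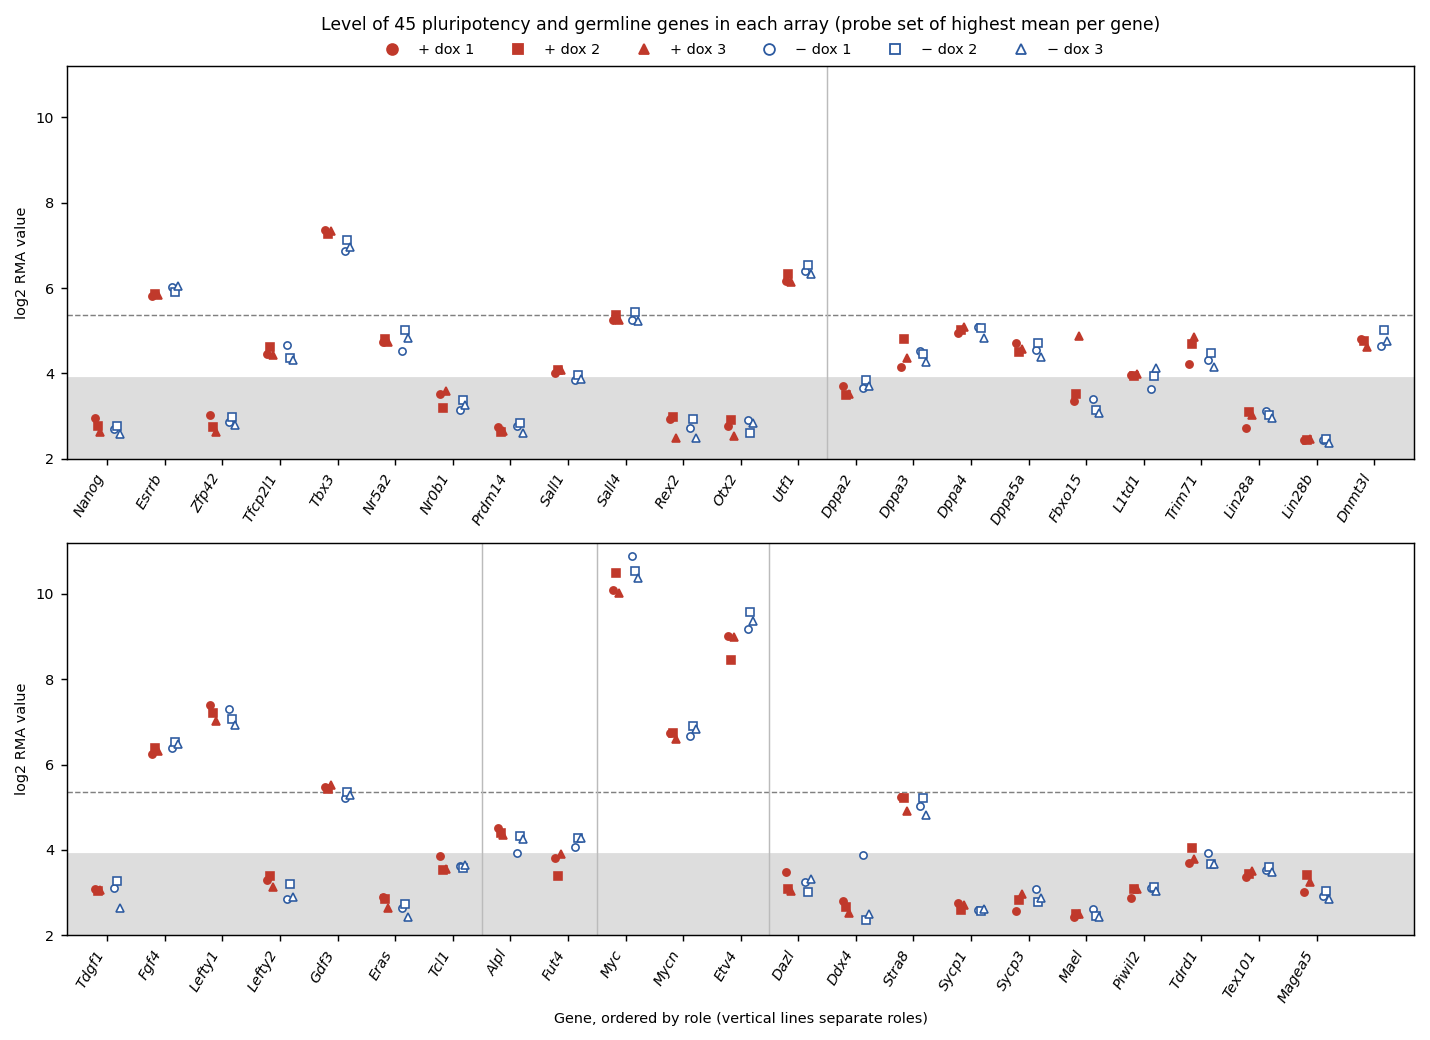
The 45 measured genes (horizontal axis) by their RMA level in log2 units (vertical axis), with a symbol for each of + dox arrays 1 to 3 (red, filled) and − dox arrays 1 to 3 (blue, open) and the probe set of highest mean per gene; the grey area lies under the highest lower quartile of the arrays (3.90) and the dashed line is the median of all probe sets. Most genes lie at the same height in both groups, and Fbxo15 has 1 array, + dox 3, at 4.88 above the others.

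Whether partial reprogramming was accompanied by higher levels of the endogenous genes is the question of the + dox and − dox comparison. limma called 0 of 72 member probe sets in either direction, where it called 3.65% of all probe sets tested (1276 of 34945; 2.34% higher and 1.31% lower in + dox). Before adjustment 5 member probe sets had a p under 0.05, against 20.8% of all. They were 1 of Tbx3 on the higher side (10.5% of all) and 1 of Dppa2, 1 of Fut4 and both of Etv4 on the lower side (10.3% of all). With 1 probe set per gene, limma called 0 of 45 members (4.87% of 18193 genes), and 3, Etv4, Fut4 and Tbx3, had an unadjusted p under 0.05 (21.7% of genes). The groups did not overlap in 14 member probe sets, 7 in each direction, against 25.8% of all (13.5% higher and 12.3% lower). The median difference over the members was 0.01, beside 0.00 over all probe sets tested. Differences smaller than 0.25 in size were found in 57 of 72 members and in 22672 of all 34945 probe sets. The member median was −0.16 when the lowest 40% of all probe sets were left out. A p that misses the threshold does not show equal levels, and the intervals give the limits of the difference in array values. For 68 of 72 members (94.4%, against 82.8% of all probe sets) the 95% confidence interval lay within 1 log2 unit of 0. That is a 2-fold change of the array value. The exceptions were Fbxo15, Ddx4 and 1 probe set each of Mycn and Etv4. In the 31 probe sets under the lower quartile in every array values are compressed, so their intervals do not bound the change in RNA. In bulk RNA, a change in a few cells and a small change in all cells cannot be told apart.

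**Figure D2:**
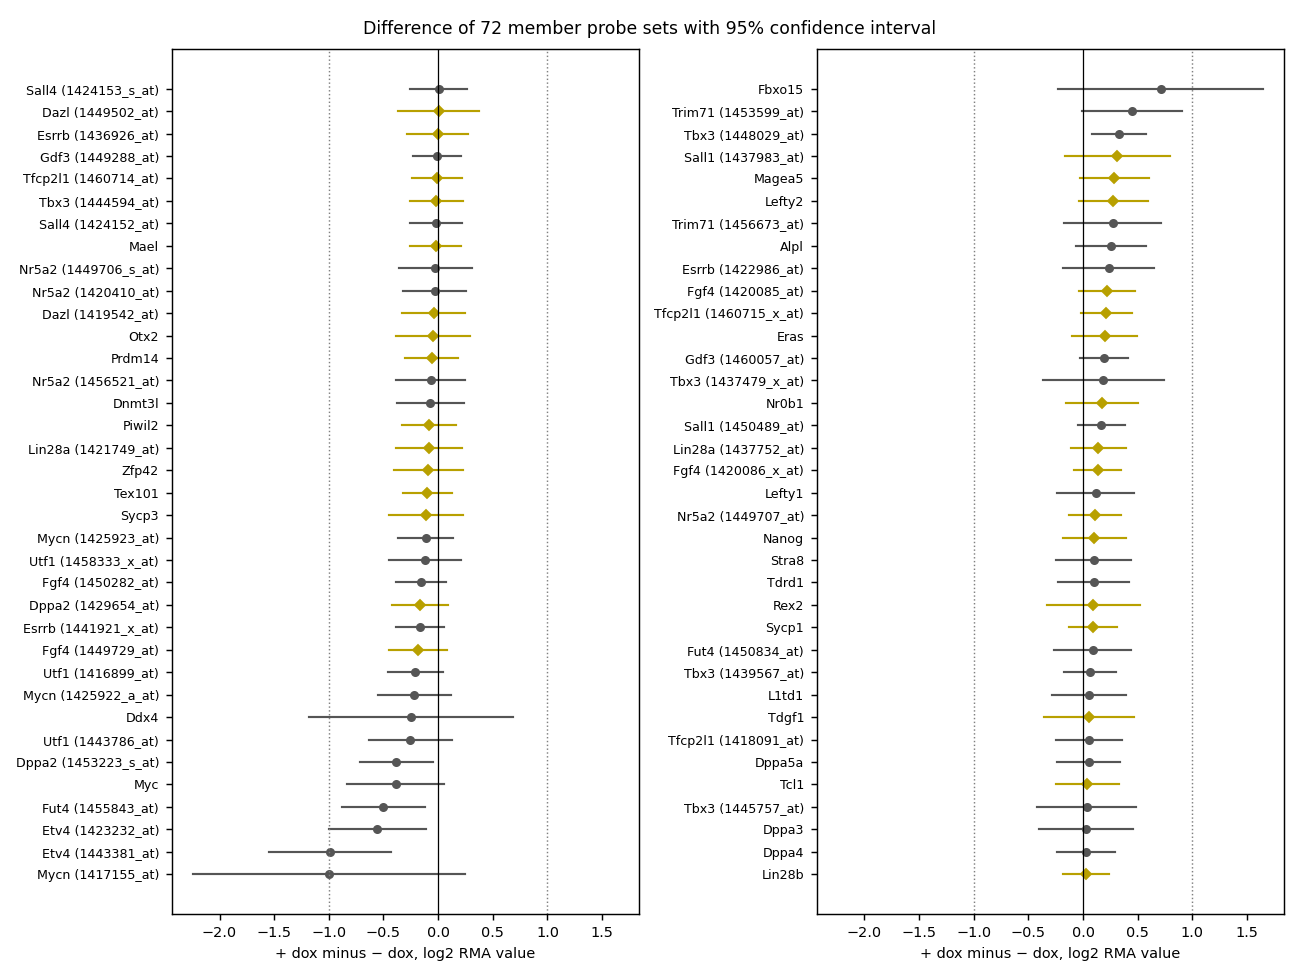
Difference of + dox minus − dox on the log2 scale (horizontal axis) for each of the 72 probe sets (vertical axis, split in 2 panels, lower values at left), with the 95% confidence interval of the limma fit; yellow diamonds are probe sets under the lower quartile in all 6 arrays, grey circles the others, and dotted lines mark a 2-fold change. Intervals of 68 probe sets stay between the dotted lines, and Mycn, Etv4, Ddx4 and Fbxo15 reach past them.

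Among 13 pluripotency transcription factor genes, 28 probe sets had differences from −0.26 to 0.33 with a median of 0.00. Tbx3, a T-box factor that also acts in melanocytes and melanoma, had the largest of these. Its probe set 1448029_at read 7.35, 7.27 and 7.33 in + dox arrays against 6.87, 7.12 and 6.97 in − dox arrays. All 3 + dox values lay above all 3 − dox values, by 0.33 in the mean (SE 0.10, limma adjusted p = 0.135). Its other 4 probe sets had differences of −0.02 to 0.18. Esrrb, an orphan nuclear receptor of the naive state, had 3 probe sets that differed in sign, between −0.17 and 0.23. In the brightest, 1441921_x_at, the + dox arrays read 5.81, 5.85 and 5.83 and the − dox arrays 6.03, 5.91 and 6.05, without overlap (−0.17, SE 0.09, limma adjusted p = 0.368). Sall4, a zinc finger partner of Oct4, differed by −0.02 and 0.00 in its 2 probe sets.

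Utf1, a chromatin factor of stem cells that Oct4 and Sox2 regulate, had 3 probe sets that all had lower means in + dox cells, by −0.12 to −0.26. In the probe set above the array median, 1416899_at, the + dox arrays stood at 6.16, 6.32 and 6.15 and the − dox arrays at 6.40, 6.53 and 6.33. The groups did not overlap, and the difference was −0.21 (SE 0.10, limma adjusted p = 0.325). Nr0b1, Prdm14, Rex2 and Otx2 joined Nanog and Zfp42 under the lower quartile in every array, with differences of −0.06 to 0.17. Tfcp2l1, an activator of the naive state, Nr5a2, a nuclear receptor, and Sall1 each had at least 1 probe set above it, and their 9 probe sets had differences of −0.07 to 0.31.

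The Dppa genes and the cofactor and RNA-binding genes of early embryos gave a similar picture, apart from Fbxo15. Dppa3, Dppa4 and Dppa5a, which are expressed in oocytes and stem cells, differed by 0.03, 0.02 and 0.05. Dppa2, the partner of Dppa4, had −0.38 in probe set 1453223_s_at (3.22, 3.32 and 3.37 in + dox against 3.50, 3.95 and 3.61 in − dox arrays; limma adjusted p = 0.184), without overlap, and −0.17 in its other probe set. All of these Dppa2 values but that of − dox 2 lay under the lower quartile. Lin28a and Lin28b, which block maturation of let-7 microRNAs, lay between 2.36 and 3.11 in every array. Dnmt3l, a cofactor of DNA methylation in germ cells, differed by −0.07 and L1td1 by 0.06.

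Fbxo15, an F-box gene bound by Oct4 and Sox2 in stem cells, had the largest higher mean in + dox cells, and it came from 1 array. It stood at 3.36, 3.52 and 4.88 in + dox arrays 1, 2 and 3 and at 3.41, 3.14 and 3.08 in − dox arrays. The value of + dox 3 was 1.52 above the median of the other 5 arrays, while + dox 1 and 2 stood at the level of the controls. The difference was 0.71 (SE 0.39, interval −0.23 to 1.65, limma adjusted p = 0.375), and without + dox 3 it was 0.23. Trim71, a let-7 target of stem cells, was likewise highest in + dox 3 in both of its probe sets. Its probe set 1453599_at read 4.12, 4.14 and 4.77 against 4.01, 3.88 and 3.81, a difference without overlap of 0.44 (limma adjusted p = 0.254) that was 0.23 without + dox 3. In 1456673_at it was 0.27, and 0.13 without that array. A departure of more than 1 log2 unit from the median of the other arrays, a limit chosen after the values were seen, occurred in 4.83% of all probe sets in + dox 3. Among members it occurred there in Fbxo15 alone.

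Ligands and growth regulators of stem cells did not pass the test either. Lefty1, an inhibitor of Nodal signalling, was above the array median throughout, at 7.39, 7.21 and 7.02 in + dox and 7.30, 7.06 and 6.92 in − dox arrays. The groups overlapped (difference 0.11, SE 0.15, limma adjusted p = 0.734). Its paralogue Lefty2 lay under the lower quartile in every array, with a difference of 0.28. Fgf4, a growth factor under an Oct4 and Sox2 enhancer in stem cells, had 4 probe sets. The 1 above the lower quartile, 1450282_at, stood at 6.25, 6.38 and 6.31 against 6.39, 6.54 and 6.49 (−0.16, limma adjusted p = 0.411), and 2 of the other 3 had the opposite sign. Gdf3, a TGF-beta family ligand, had −0.01 and 0.19. The Nodal coreceptor gene Tdgf1, the Ras-like gene Eras and the Akt coactivator gene Tcl1 lay under the lower quartile in all arrays, with differences of 0.04 to 0.20.

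Of the surface markers, Alpl, whose product gives the alkaline phosphatase stain of stem cells, stood at 4.52, 4.40 and 4.35 in + dox and 3.92, 4.32 and 4.26 in − dox arrays. The groups did not overlap, and the difference was 0.26 (SE 0.13, limma adjusted p = 0.347). Fut4, a fucosyltransferase gene linked to the SSEA-1 antigen, pointed in opposite directions in its probe sets. In 1455843_at the + dox arrays read 3.82, 3.38 and 3.90 and the − dox arrays 4.06, 4.27 and 4.27, a difference of −0.50 (SE 0.16, limma adjusted p = 0.143). The groups did not overlap. In 1450834_at the difference was 0.09, with the groups overlapping around the lower quartile.

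Myc, Mycn and Etv4, transcription factors of growing cells that stem cells share with many tumours, had all 6 of their probe sets above the lower quartile in every array, and all 6 had lower means in + dox cells. Etv4, an ETS factor that MAPK signalling induces, had the smallest p of all members. Probe set 1443381_at stood at 5.77, 5.27 and 5.13 in + dox and 6.75, 6.06 and 6.32 in − dox arrays. The groups did not overlap, and the difference was −0.99 (SE 0.23, interval −1.54 to −0.43, limma adjusted p = 0.0729). The brighter probe set, 1423232_at, read 9.00, 8.46 and 8.99 against 9.18, 9.58 and 9.36, also without overlap (−0.56, SE 0.19, limma adjusted p = 0.154). Etv4 passed the test without + dox 1 in 1443381_at (−1.18, limma adjusted p = 0.0365) and with the mean of both probe sets (−0.77, limma adjusted p = 0.0397), so its call depends on the setting.

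Myc stood at 10.10, 10.49 and 10.02 in + dox and at 10.88, 10.54 and 10.36 in − dox arrays. The groups overlapped, since + dox 2 lay above − dox 3 (−0.39, SE 0.18, limma adjusted p = 0.297). Mycn differed between its probe sets. In 1417155_at the − dox arrays spread from 5.17 to 7.37, with − dox 3 at the top and 2.18 above the median of the other 5 arrays, while the + dox arrays lay at 5.43, 4.90 and 5.19. The difference of −1.0 (SE 0.52, limma adjusted p = 0.345) was −0.40 without − dox 3. The brightest Mycn probe set, 1425923_at, read 6.73, 6.75 and 6.60 in + dox and 6.68, 6.91 and 6.83 in − dox arrays. The groups overlapped with a difference of −0.11, and the remaining probe set had −0.22.

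**Figure D3:**
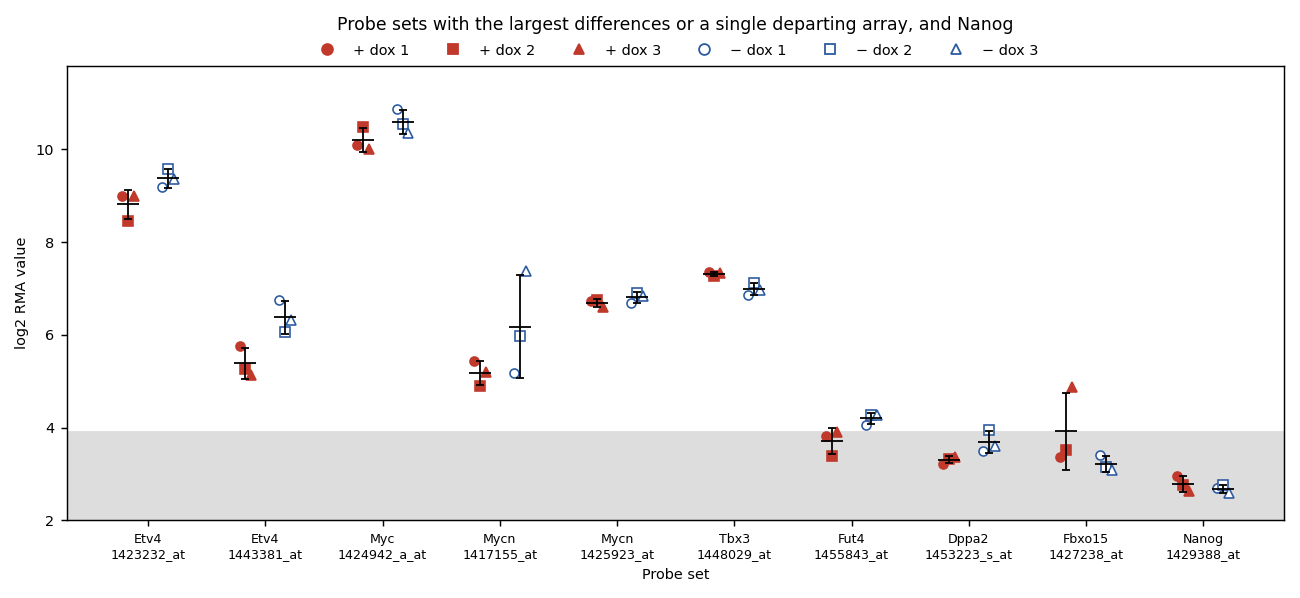
RMA level in log2 units (vertical axis) of 10 member probe sets (horizontal axis), with a symbol for each of + dox arrays 1 to 3 (red, filled) and − dox arrays 1 to 3 (blue, open); black bars give mean ± SD per group (n = 3), and the grey area lies under the highest lower quartile (3.90). Both Etv4 probe sets are lower in every + dox array than in every − dox array, whereas the spread of Mycn 1417155_at comes from − dox 3 (7.37) and that of Fbxo15 from + dox 3 (4.88).

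Of the role groups, the germline genes had the lowest share of probe sets above the lower quartile: 3 of 11 probe sets exceeded it in any array and 1, that of Stra8, in all 6. Stra8, which starts meiosis, stood at 5.23, 5.21 and 4.91 in + dox and 5.02, 5.21 and 4.83 in − dox arrays (0.10, limma adjusted p = 0.775). The meiotic chromosome pairing genes Sycp1 and Sycp3 and the RNA-binding gene Dazl lay between 2.44 and 3.48 in every array. So did the piRNA pathway genes Mael and Piwil2. Tdrd1, also of the piRNA pathway, lay between 3.66 and 4.05, and the testis surface gene Tex101 between 3.36 and 3.59. Ddx4, the Vasa helicase of germ cells, was at 3.88 in − dox 1 and between 2.37 and 2.81 in the other 5 arrays. Its difference of −0.25 was 0.24 without − dox 1. Magea5, a cancer-testis gene, had the largest difference of the group, 0.29 (3.01, 3.42 and 3.25 against 2.92, 3.05 and 2.85; limma adjusted p = 0.289), under the lower quartile in all arrays. The germline probe sets had a median difference of −0.02, with 0 called.

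Germline genes outside the module gave 0 calls as well, in 29 probe sets of 23 genes (3.65% of all probe sets were called). Their median difference was 0.08. Before adjustment 3 had a limma p under 0.05 (20.8% of all), 1 of Rhox5 and both of Nanos1, each higher in + dox. The Nanos1 differences were 0.31 and 0.35, without overlap (limma adjusted p = 0.142 and 0.227). Rhox5, an X-linked homeobox gene of testis and placenta, stood at 5.43 in + dox 1, 9.36 in + dox 2 and 11.42 in + dox 3, against 5.29 to 5.48 in − dox arrays. Array + dox 1 lay at the level of the controls, and the difference of 3.38 did not pass (SE 1.37, limma adjusted p = 0.227). Nanos1 and Rhox5 were singled out after their values were seen.

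Some genes around the pluripotency circuit that lay well above the lower quartile changed. Of 20 measured genes of the LIF pathway and of naive-state regulation, 3 fell and 0 rose, in 6 of 55 probe sets (1.31% of all probe sets were called lower). Socs3, the feedback inhibitor that Stat3 induces, fell in all 3 of its probe sets. In 1455899_x_at the + dox arrays stood at 8.19, 8.18 and 8.14 and the − dox arrays at 9.23, 9.12 and 9.51, with a wide gap between the groups. The difference was −1.12 (SE 0.12, 2.17-fold lower, limma adjusted p = 0.0113). Its other probe sets fell by 0.73 and 0.83 (limma adjusted p = 0.0274 and 0.0281).

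Zfp281, a zinc finger repressor of Nanog, read 8.71, 8.73 and 8.62 against 9.36, 9.16 and 9.27 in 1452045_at, a fall of 0.58 without overlap (limma adjusted p = 0.0339), and its other probe set fell by 0.49 (limma adjusted p = 0.0454). Sall2, a relative of Sall4, stood at 5.81, 5.70 and 5.40 in + dox and 6.32, 6.94 and 6.89 in − dox arrays (−1.08, SE 0.20, 2.11-fold lower, limma adjusted p = 0.0405). Leaving out arrays changed these calls: 6 of the 6 were lost without + dox 2 or + dox 3, with Sall2 at a limma adjusted p of up to 0.155 when an array was left out. Without − dox 2 or − dox 3, 5 of the 6 were lost and that of Socs3 1455899_x_at was not. Without + dox 1 or − dox 1, 5 of the 6 held, and the smaller Zfp281 call was lost under each array left out (limma adjusted p = 0.0634 to 0.172). The ligand, receptor and kinase genes of the LIF pathway, named after their values were seen, did not pass. Lif had differences of −0.38 and 0.05 and the coreceptor gene Il6st of −0.03 to 0.31. The receptor gene Lifr read 6.11, 4.88 and 5.35 in + dox and 6.80, 6.60 and 7.20 in − dox arrays in its brightest probe set (−1.42, limma adjusted p = 0.0659), with −0.03 and 0.01 in the others. Jak1 had 0.95, 1.02 and 1.04 (limma adjusted p = 0.0962 to 0.134), and Stat3 −0.26 to 0.14.

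Reprogramming of mesenchymal cells passes through a transition to an epithelial state, and 10 genes of that switch were measured by 23 probe sets. Of these, 4 fell and 0 rose, in the genes Zeb2 and Ocln (1.31% of all probe sets were called lower). Zeb2, a repressor of E-cadherin and a melanocyte factor, fell in 3 of its 5 probe sets. The others, 1422748_at and 1454200_at, were also lower without overlap but did not pass (−1.01 and −1.24, limma adjusted p = 0.103 for each). The largest fall was in 1456389_at, from 9.34, 9.05 and 9.47 in − dox to 8.02, 8.25 and 7.52 in + dox arrays (−1.36, SE 0.21, 2.56-fold lower, limma adjusted p = 0.0269). Ocln, which encodes the tight junction protein occludin, fell by 1.23 in 1440220_at, from 6.64, 6.97 and 6.82 in − dox to 6.03, 5.41 and 5.31 in + dox arrays (limma adjusted p = 0.0332). The brighter Ocln probe set, 1448873_at, was lower by 1.82 without overlap and did not pass (limma adjusted p = 0.0642). Cdh1, the gene of E-cadherin, lay between 3.60 and 3.72 in every array, under the lower quartile, with a difference of −0.01. All 4 calls were lost without + dox 2, + dox 3, − dox 2 or − dox 3, and 1 Zeb2 call each also without + dox 1 and without − dox 1.

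**Figure D4:**
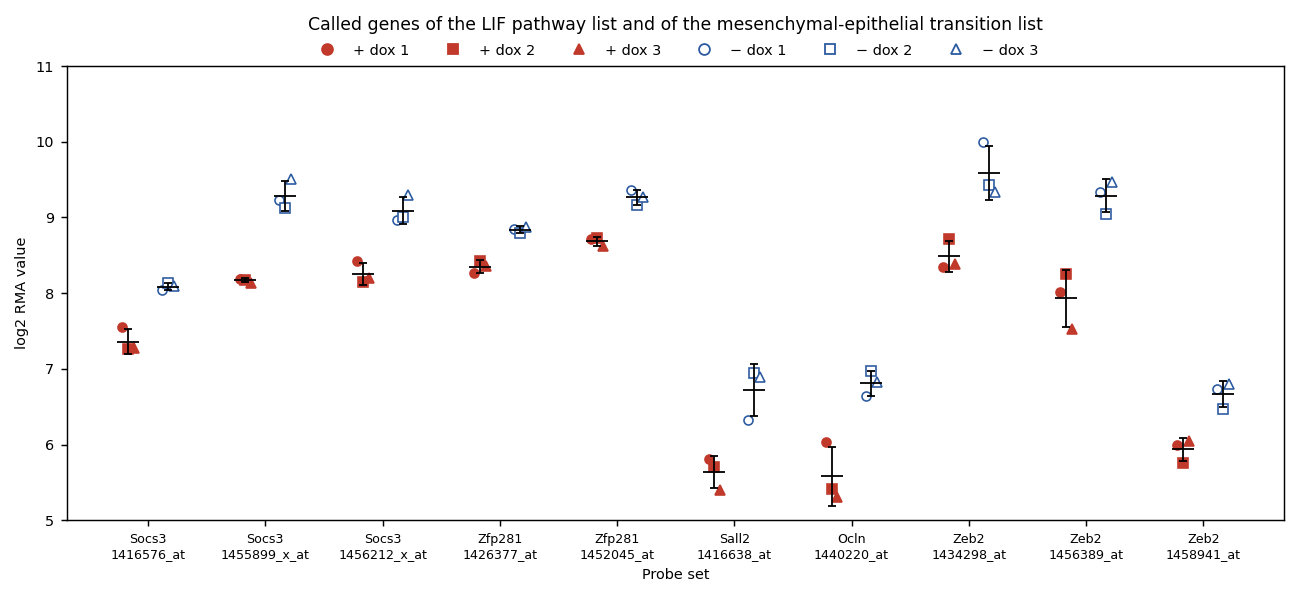
Called probe sets of the LIF pathway and mesenchymal-epithelial lists (horizontal axis) by RMA level in log2 units (vertical axis), with a symbol for each of + dox arrays 1 to 3 (red, filled) and − dox arrays 1 to 3 (blue, open) and black bars for mean ± SD per group (n = 3). In each of the 10 probe sets all + dox values lie below all − dox values, with Socs3 1455899_x_at at 8.14 to 8.19 against 9.12 to 9.51.

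Markers of cell types were read beside these results. Of 12 melanocyte genes, Gpnmb, a melanosome glycoprotein gene, fell in both probe sets and 0 rose. In 1448303_at it went from 10.58, 9.51 and 9.45 in − dox to 7.76, 7.16 and 6.75 in + dox arrays (−2.62, limma adjusted p = 0.0212), and in 1439345_at from 4.96, 4.65 and 4.77 to 3.89, 3.64 and 3.40. Both Gpnmb calls were lost without + dox 2, + dox 3, − dox 2 or − dox 3 (limma adjusted p up to 0.100). Tyr and Mlana lay under the lower quartile in every array of both groups, the only 2 of the 12 genes to do so. Pmel (5.25 to 5.43), Dct (4.21 to 4.61) and both Slc45a2 probe sets (4.72 to 5.23) lay above it in all 6 arrays. Tyrp1 exceeded it in 1 array for 1 of its 3 probe sets, and Mitf (6.17 to 8.15 in 1455214_at) and Sox10 lay above it. Mitf differed by −0.76 in that probe set and by −0.20 in its other, without passing (limma adjusted p = 0.350 and 0.474). Pmel differed by 0.01 and Dct by 0.06. Means were higher in + dox cells in 14 of the 24 melanocyte probe sets and lower in 10, with a median difference of 0.03. The paper reports decreased Mitf and Pmel expression in the partially reprogrammed cells of this line by quantitative PCR. The array values of Pmel here do not show a decrease, and the reason was not tested. Fibroblast markers gave 0 calls in 15 probe sets, and of 6 keratinocyte genes Krt14 rose in 2 of its 3 probe sets. In 1423935_x_at it stood at 8.21, 7.68 and 8.77 in + dox and 4.67, 4.47 and 4.50 in − dox arrays (3.67), a call that held with each array left out. In 1460347_at it stood at 6.67, 5.98 and 7.43 against 4.26, 4.32 and 4.12 (2.46), a call lost without − dox 2 or − dox 3 (limma adjusted p up to 0.0937). In the brightest probe set per gene, Krt5, Krt10, Krt15, Sfn and Trp63 differed by −0.05, 0.55, 0.01, 0.20 and −0.15 and were not called. Of the 11 keratinocyte probe sets, 5 had higher and 6 lower means in + dox cells. The part of these cell type markers in the results was not tested. The vector genes gave 0 calls in 4 probe sets. Pou5f1 stood at 4.77, 5.32 and 4.92 in + dox and 4.13, 4.21 and 4.42 in − dox arrays, without overlap (0.75, limma adjusted p = 0.0640). Sox2 had the lower values in + dox cells, 7.53, 7.13 and 6.93 against 7.56, 8.04 and 8.11, also without overlap (−0.71, limma adjusted p = 0.122). The Klf4 probe sets had −0.58 and 0.16, with overlap. The group labels name doxycycline and give no direction for Sox2. The paper reports increased Sox2 expression in the partially reprogrammed cells of this line by quantitative PCR, and cites a SOX2 protein blot beside it. It adds that its array data gave further support to the partial reprogramming. The array values of Sox2 here do not show an increase. The reason for this difference was not tested. Whether the probe sets of the vector genes read vector transcripts was not tested, so induction of the vector cannot be read from them.

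Arrays also differed within groups. Array + dox 1 correlated with − dox 2 (r = 0.986 over probe sets, which are not independent replicates) about as closely as with + dox 2 (0.987), while + dox 2 and + dox 3 had 0.994. limma called 2458 probe sets without + dox 1, 1651 without − dox 1, and 144 to 219 without + dox 2, + dox 3, − dox 2 or − dox 3. Among members, the calls under these settings were 1 without + dox 1 and 0 without each other array. Of the 72 probe sets, 6 carry the suffix x_at, by which Affymetrix marks probes that may bind other sequences. A further 4 carry the suffix s_at for probes shared by several transcripts. The called probe sets Krt14 1423935_x_at, Socs3 1455899_x_at and Socs3 1456212_x_at also carry x_at. RefSeq also lists pseudogenes of Nanog, Zfp42 and Dppa3, and which copies their probe sets read was not tested.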

How the data were processed

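RNA of 3 + dox and 3 − dox samples of 4434 cells, grouped by their labels, was measured on Affymetrix Mouse Genome 430 2.0 arrays. The deposited table holds log2 levels that the authors obtained by RMA in Chipster; its version and the chip definition file are not given in the sources used here. That the scale is log2 was read from the values (2.08 to 14.44); the columns are levels, not centred, and carry no direction of their own. RMA compresses low values, and 6 arrays allow a limited precision.

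The table held 45101 probe sets, of which 34945 had exactly 1 gene symbol in the 2016 platform annotation, 932 had several and 64 were array controls. Symbols were updated through Entrez identifiers (0 changed). For each probe set with 1 symbol a two-sided comparison of the groups was made by lmFit and eBayes of limma 3.58.1 (R 4.3.3). P-values were adjusted by Benjamini-Hochberg across the 34945, and those under 0.05 were called. The fit was also run on simulated data with independent noise per probe set. These data hold no departures of whole arrays, so the run does not cover them.

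Members and lists were chosen with earlier results of these data known. Full values were given for Nanog, Fbxo15, members with an unadjusted p under 0.05, the 8 genes of highest level, the 6 of largest difference, and called genes of the other lists. Other members with values were chosen after these were seen. Alternatives were other summaries per gene, the replicate block, filters on dim probe sets, eBayes settings, other normalisations, all probe sets, other thresholds and each array left out. Of the other germline genes, Tdrd6, Nanos2 and Mage-a8 had no matching probe set, nor had Dsg3 of the keratinocyte genes. Deviations of same-numbered arrays from their group means correlated weakly (r = −0.08, −0.09 and 0.14 for numbers 1, 2 and 3). With 3 arrays per group this cannot exclude a pairing. The main comparison has no replicate block.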

Additional observations from a re-analysis of the deposited data

How the results depend on the processing

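The count of called members was 0 of 72 in most settings. It was 1 (Etv4) with the mean of all probe sets of a gene and 2 (Etv4 and Mycn, both lower) without both arrays numbered 1, a setting chosen after seeing the data, and it ranged from 0 to 1 when each array was left out. The members' median ranged from −0.01 to 0.04 with each array left out and was −0.16 without the lowest 40% of probe sets, which removes the dim members. With the array median in place of the lower quartile, 14 members were above it in any array, against 41. Over all probe sets the count of 1276 became 493 with the replicate block, 788 genes with the mean of all probe sets, 161 at an adjusted threshold of 0.01 and 5528 without both arrays numbered 1, and ranged from 144 to 2458 with each array left out. With 1 probe set per gene, 886 genes were called, 303 with the replicate block, 128 at 0.01, 3649 without both arrays numbered 1, and 118 to 1650 with each array left out. No label states whether the numbers pair the arrays, and 3 arrays per group cannot decide it. With the block 0 members were called, and Zfp281, Sall2, Zeb2 and Ocln lost their calls. So did 2 of 3 probe sets of Socs3 and 1 called probe set of Krt14. The difference of Ddx4 ranged from −0.52 to 0.24 with each array left out, turning positive without − dox 1, and was 0.165 when both number 1 arrays were dropped. The cause of these shifts was not tested.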
